A study of Homo sapiens with 8 samples.

Results

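The ERK branch of the mitogen-activated protein kinase (MAPK) pathway writes part of its activity into a small set of transcripts. Among them are 10 genes examined here in the uveal melanoma cell line MEL202: the phosphatase genes DUSP4, DUSP5 and DUSP6, the inhibitor genes SPRY2, SPRY4 and SPRED1, the receptor gene EPHA2, the transcription factor genes ETV4 and ETV5, and PHLDA1. They were chosen by name, and each was represented by its locus with the highest mean. Of the 10, 9 had a locus among the 32087 of the table; SPRY4 was not analysed here. Of these 9, 6 had a mean of at least 5 and were tested among the 8600 named genes that reached it. DUSP5, SPRY2 and PHLDA1 lay under 5 and were tested only in a wider set of 10520 genes, those whose mean reached 1.

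MEL202 has 1 mutant and 1 wildtype allele of SF3B1, a splicing factor gene. Like most uveal melanomas it also carries an activating mutation in the Gq pathway, in its case in GNAQ. Active Gq reaches ERK through phospholipase C, protein kinase C and the RAS exchange factor RasGRP3. ERK then switches on genes whose products shut it down again. The products of DUSP4, DUSP5 and DUSP6 are dual-specificity phosphatases (DUSP) that remove phosphate from ERK itself. Sprouty (SPRY) and SPRED proteins act further up, on the way from receptors to RAS and RAF. ETV4 and ETV5 are ETS factors of the PEA3 group that carry the signal on to other genes.

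The 8 libraries came from 4 lines, each grown with and without Shld: parental cells, cells with the mutant SF3B1 allele knocked out (here the knockout line), cells with a destabilising domain on the mutant SF3B1 protein (the mutant degron line) and cells with that domain on the wildtype protein (the wildtype degron line). Shld is a ligand that protects the domain, so the tagged protein is lost when Shld is withdrawn. The sample labels give 2 days for the 3 derived lines and no time for parental cells. In the table, the knockout columns are named as also carrying the domain on wildtype SF3B1, and the libraries without Shld of knockout and parental cells are named as 4 days. The labels list the lines under the heading clone, with no second clone of any, so a property of a line cannot be told apart from one of its clone. There was 1 library per state, and no label says that a pair came from separate cultures. The spread behind the p-values is only that between these libraries and may be technical. In the comparisons with parental cells this spread is how far the Shld change differs between lines. A true difference of that kind is counted in it.

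Levels are FPKM (fragments counted per unit of transcript length and of sequencing depth) that the authors rescaled so that the 75th percentile of each library is 10. Absolute depth was unknown; judged by low values, the other 7 libraries had 1.05 to 1.48 times the relative depth of the parental library with Shld. SF3B1, whose alleles are not separated in the table, read 266 with and 240 without Shld in parental cells, and in the same order 158 and 138 in knockout, 248 and 252 in mutant degron and 188 and 201 in wildtype degron cells; since the domain acts on the protein, the degron libraries are not checked by this. Ribosomal protein transcripts made up 11.8% and 12.1% of the summed values in the wildtype degron line and 16.6% to 21.0% elsewhere. The pigment cell identity of the lines was visible: 9 of 9 melanocyte lineage markers with a locus reached 1 in at least 1 library of every line. Their summed level was 12038 to 13043 in parental cells, 6550 to 7296 in the knockout line, 7660 to 9262 in the mutant degron line and 14343 to 15592 in the wildtype degron line. It thus moved with the line, and its part in the results below was not tested. The 4 epithelial markers with a locus summed to at most 0.759 in any library, and of 4 fibroblast markers only LUM was above 1, with sums of 1.64 to 29.9. Endothelial markers (4 with a locus) summed to at most 1.41. Of 4 immune markers CD3E was listed at 0 throughout, while CD68, also a lysosomal gene of pigment cells, held most of sums from 645 to 834. The other immune markers were CD79A, at 0.148 to 6.06, highest in mutant degron cells with Shld, and PTPRC, at 0.232 to 1.22.

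Promoter sequences from RefSeq were at hand for 5 of the 9 genes. The 2 shown are those of EPHA2, which differed from parental cells in every derived line, and of DUSP6, the best known ERK phosphatase of the group. Each line gives the 250 bases before the start site on the gene's own strand (5′ to 3′, build GRCh38.p14, not the hg19 build of the expression table), EPHA2 at chr1:16156070-16156319 and DUSP6 at chr12:89352502-89352751, both on the minus strand. Capitals mark matches on either strand to GGAAG, taken here as the ETS core, or to the cyclic AMP response element TGACGTCA. Stretches of GGAA not followed by G were not marked or counted.
EPHA2: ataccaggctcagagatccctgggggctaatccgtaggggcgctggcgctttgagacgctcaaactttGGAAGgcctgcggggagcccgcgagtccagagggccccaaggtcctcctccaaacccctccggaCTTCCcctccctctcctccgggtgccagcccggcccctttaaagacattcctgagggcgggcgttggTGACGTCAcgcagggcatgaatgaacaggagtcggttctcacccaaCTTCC
DUSP6: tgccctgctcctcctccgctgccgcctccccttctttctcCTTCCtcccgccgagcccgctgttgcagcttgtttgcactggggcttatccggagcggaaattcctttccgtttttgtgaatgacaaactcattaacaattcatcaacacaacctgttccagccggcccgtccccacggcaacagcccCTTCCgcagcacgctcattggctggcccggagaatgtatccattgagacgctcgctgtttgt
The EPHA2 window held 3 ETS core matches, with first bases at -182, -118 and -5 from the start site, and 1 match to TGACGTCA with its first base at -51. DUSP6 held 2 ETS core matches, with first bases at -210 and -62. The ETS core is short and was found in 71.9% of 35116 promoter windows of 300 bases, so most genes share it. TGACGTCA was found in 1.85% of the windows, and among the 7 windows of the 5 genes only in that of EPHA2. The AP-1 motif TGANTCA, present in 7.71% of all windows, had no match in the 7. A match is a description of letters and not a measured binding site.

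The first comparison set each derived line against parental cells, over both Shld states. EPHA2, a receptor tyrosine kinase of the ephrin family, was higher in all 3 derived lines, ETV5 and ETV4 were lower in the knockout and mutant degron lines and near parental levels in the wildtype degron line, and DUSP4 was higher in the wildtype degron line. Of the 6 genes tested, 3 passed in the knockout line (1 higher, 2 lower), where 40.1% of all genes tested did (18.7% higher, 21.4% lower). In the mutant degron line 3 passed (1 higher, 2 lower), against 26.8% of all genes (12.3% higher, 14.5% lower), and in the wildtype degron line 2, both higher, against 48.2% (23.7% higher, 24.5% lower). These shares are near the background, so the count of genes that passed is no result about this set; the lines differ from parental cells at a large part of the transcriptome. The median difference of the 6 genes was -0.14, -0.15 and +0.12 in the knockout, mutant degron and wildtype degron lines, against -0.03, -0.04 and +0.01 over all genes. All 3 comparisons share the same 2 parental libraries. In bulk RNA, fewer expressing cells and less RNA per cell cannot be told apart. Differences and their SE are in log2(value + 1), a scale that understates changes of low genes, and come from limma with terms for line and Shld and Benjamini-Hochberg adjusted p-values over all genes tested, called at 0.05.

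**Figure D1:**
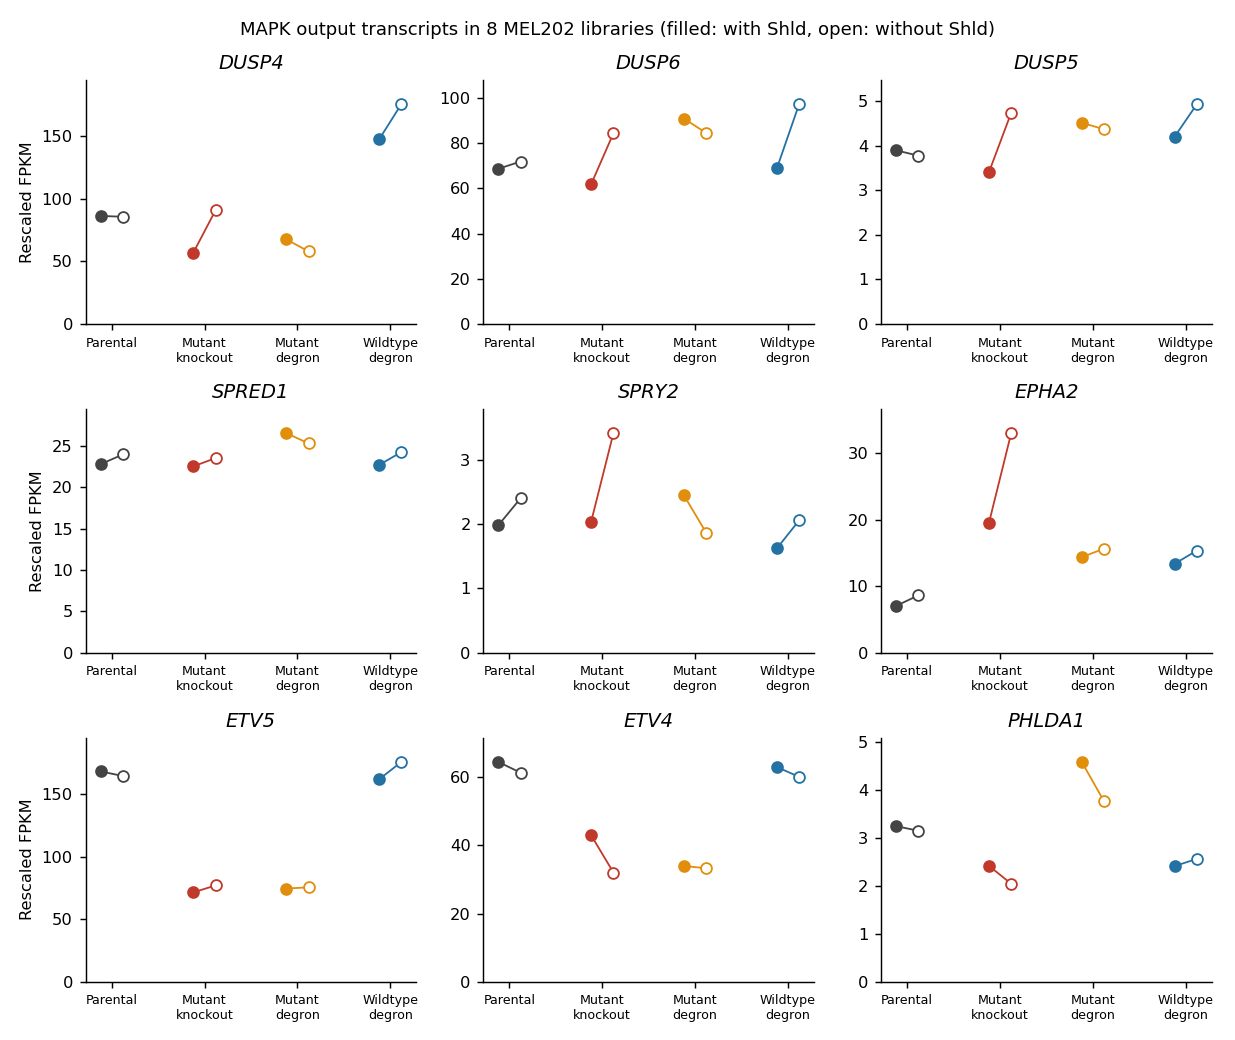
Level of the 9 genes in each of the 8 libraries, in rescaled FPKM on linear axes that begin at 0; filled points are libraries with Shld, open points those without, and a line joins the pair of each cell line. ETV5 and ETV4 fall into a high pair of lines (parental, wildtype degron) and a low pair (knockout, mutant degron), while SPRED1 stays between 22.6 and 26.6 in all 8 libraries.

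Among the ETS factors, the level of ETV5 with and then without Shld was 168 and 164 for parental cells, 71.4 and 76.9 for knockout cells, 74.4 and 75.4 for mutant degron cells, and 162 and 176 for wildtype degron cells. The knockout and mutant degron libraries were all below the other 4, with no overlap. In the knockout line ETV5 was at 0.446 times its parental mean, a difference of -1.15 ± 0.09 (limma, adjusted p = 1.84e-05), and in the mutant degron line at 0.451 times, a difference of -1.14 ± 0.09 (adjusted p = 3.87e-05). The wildtype degron line stood at +0.02 ± 0.09 (adjusted p = 0.87). The fall in the first 2 lines was larger than that of 95.7% and 97.8% of the genes tested.

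ETV4 had the same split of lines at a lower level. With and then without Shld, parental cells read 64.4 and 61.3, wildtype degron cells 63.0 and 60.1, knockout cells 42.9 and 32.0, and mutant degron cells 33.9 and 33.3. Again the 4 libraries of the knockout and mutant degron lines lay below the other 4. ETV4 differed by -0.75 ± 0.11 in the knockout line (adjusted p = 0.00088) and by -0.88 ± 0.11 in the mutant degron line (adjusted p = 0.00074). In the wildtype degron line the difference was -0.03 ± 0.11 (adjusted p = 0.83). A second ETV4 locus, not used here, had a lower mean.

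EPHA2 was lowest in parental cells, at 7.07 with and 8.65 without Shld. In the same order, mutant degron cells read 14.4 and 15.7, wildtype degron cells 13.4 and 15.4, and knockout cells 19.5 and 33.1. The 6 derived libraries all lay above both parental ones, and both knockout libraries above those of the degron lines, which overlapped each other. The knockout line stood 3.35-fold above the parental mean, with a difference of +1.58 ± 0.15 (limma, adjusted p = 5.47e-05). The differences of the mutant and wildtype degron lines were +0.86 ± 0.15 (adjusted p = 0.0033) and +0.80 ± 0.15 (adjusted p = 0.0024). Without the mutant degron library with Shld, the former was +0.72 with an adjusted p of 0.0502.

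DUSP4, a nuclear phosphatase of ERK, was highest in the wildtype degron line, at 148 with and 176 without Shld. Parental cells had 86.4 and 85.7, knockout cells 57.1 and 91.1, and mutant degron cells 67.6 and 58.1. The wildtype degron libraries lay above all others, with a difference of +0.90 ± 0.18 from parental cells (limma, adjusted p = 0.0034). The mutant degron line was at 0.730 times the parental mean, a difference of -0.45 ± 0.18 that did not pass (adjusted p = 0.087). Leaving out the knockout library with or without Shld narrowed the spread and brought that adjusted p to 0.0151 in both cases. In the knockout line the difference of -0.25 ± 0.18 (adjusted p = 0.28) rests on 2 unlike libraries: it was -0.58 (adjusted p = 0.0154) without the library lacking Shld, and +0.08 (adjusted p = 0.72) without the library with Shld.

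DUSP6, which acts on ERK in the cytoplasm, was in the same range as DUSP4 outside the wildtype degron line but did not share its line pattern. Its levels with and then without Shld were 68.7 and 71.9 (parental), 61.9 and 84.5 (knockout), 91.0 and 84.5 (mutant degron), and 68.9 and 97.4 (wildtype degron). Lines next to each other in order of their mean overlapped throughout, but both mutant degron libraries lay above both parental ones. The differences from parental cells were +0.04 ± 0.14, +0.31 ± 0.14 and +0.22 ± 0.14 in the knockout, mutant degron and wildtype degron lines. None passed (limma, adjusted p = 0.84, 0.14 and 0.24). DUSP5, a nuclear ERK phosphatase, was low in all libraries, from 3.40 to 4.93.

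SPRED1, which brings the RAS inhibitor neurofibromin to the membrane, varied least of the 9, by 1.18-fold between its highest and lowest library. It was read between 22.6 and 24.3 in parental, knockout and wildtype degron cells, and at 26.6 and 25.3 in the mutant degron line, above the other 6, with a difference from parental cells of +0.14 ± 0.09 (adjusted p = 0.27). SPRY2, an inhibitor of receptor signalling to RAS, was near the floor at 1.62 to 3.42 with overlapping lines. PHLDA1, whose transcript is used as a readout of ERK, read 4.58 and 3.76 in mutant degron cells, above the 3.24 and 3.15 of parental cells, while wildtype degron cells had 2.41 and 2.56 and knockout cells 2.42 and 2.04. Of DUSP5, SPRY2 and PHLDA1, 0 passed in any line, against 39.6%, 25.8% and 42.8% of the 10520 genes with a mean of at least 1 in the knockout, mutant degron and wildtype degron lines. The nearest was PHLDA1 in the knockout line, with -0.38 ± 0.13 (limma, adjusted p = 0.052), which was 0.0426 with median scaling.

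**Figure D2:**
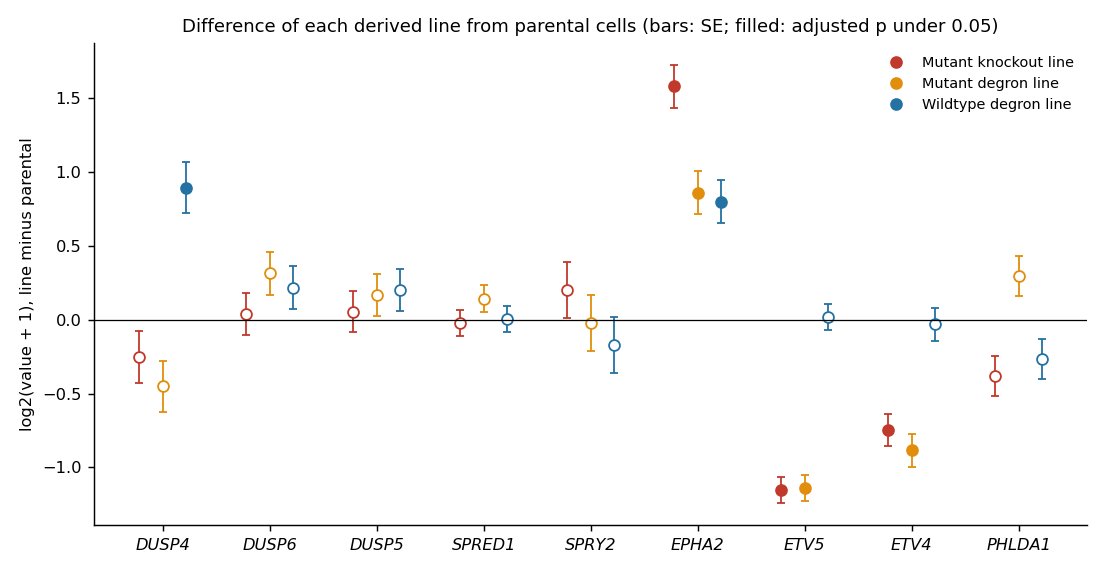
Difference of each derived line from parental cells for the 9 genes, on the log2(value + 1) scale, over both Shld states; bars are the standard error of the limma fit, and filled points passed an adjusted p of 0.05. EPHA2 is above 0 in all 3 lines, ETV5 and ETV4 are below 0 in the knockout and mutant degron lines and near 0 in the wildtype degron line, and DUSP4 passes in the wildtype degron line alone.

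The ETS factors and the phosphatases therefore did not keep a fixed ratio. The level of DUSP6 divided by that of ETV5, with and then without Shld, was 0.409 and 0.438 for parental and 0.426 and 0.555 for wildtype degron cells. For knockout cells it was 0.867 and 1.10, and for mutant degron cells 1.22 and 1.12. All 4 libraries of the latter lines thus had more DUSP6 per ETV5 than the other 4. The ratio of ETV5 to ETV4 lay between 1.66 and 2.92 in all 8 libraries.

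The second comparison asked what withdrawal of Shld did within each line. EPHA2 and DUSP4 rose in the knockout line, by 1.69-fold and 1.60-fold, and no other change of the 6 genes passed in any line. That is 2 of 6 genes in the knockout line, both higher, where 2.76% of all genes tested passed (0.977% higher, 1.78% lower), and 0 of 6 in the mutant degron line (background 0.0465%) and the wildtype degron line (background 0.093%). At an unadjusted limma p under 0.05 the counts were 4, 0 and 1 of the 6 genes. Over all genes, 1126, 146 and 341 of the 8600 reached that level in the same lines. Each change rests on 1 library per state, with the spread taken from the parental pair alone (limma, 1 residual degree of freedom), so there is no replicate check within a line.

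EPHA2 went from 19.5 to 33.1 in the knockout line, a change of +0.73 ± 0.18 (limma, adjusted p = 0.023), and DUSP4 from 57.1 to 91.1, a change of +0.66 ± 0.18 (adjusted p = 0.047). Without Shld, DUSP4 in the knockout line stood just above its parental level of 86.4 and 85.7, having been below it with Shld, whereas EPHA2 started above the parental level and moved further from it. In parental cells EPHA2 also read higher without Shld, by 0.26, and DUSP4 read 0.01 lower; less the parental change, the EPHA2 change of the knockout line was +0.47. Both calls were lost when genes with a mean from 1 to 5 were included (adjusted p = 0.091 and 0.11) and when the spread was taken from all 4 lines (0.52 for both); DUSP4 also lost its call with quantile normalization (0.086) and median scaling (0.063). The 2 knockout libraries also differed in relative depth, 1.45 with and 1.05 without Shld, and the part of this in the change was not tested.

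The other phosphatases and SPRY2 read higher without Shld in the knockout line too, but did not pass. DUSP6 stood at 61.9 with and 84.5 without Shld (+0.44 ± 0.18, limma, adjusted p = 0.24). SPRY2 stood at 2.04 and 3.42 (+0.54 ± 0.22, adjusted p = 0.32) and DUSP5 at 3.40 and 4.73 (+0.38 ± 0.19, adjusted p = 0.45). ETV4 went against them, at 42.9 with and 32.0 without Shld (-0.41 ± 0.17, adjusted p = 0.25), and ETV5 stood at 71.4 and 76.9 (+0.11 ± 0.19, adjusted p = 0.93). Of the 3 low genes, 0 passed in any line (backgrounds 0.532%, 0.057% and 0.038% among the 10520 genes for the knockout, mutant degron and wildtype degron lines), and only SPRY2 in the knockout line had an unadjusted p under 0.05. In this pair 7 of the 9 genes were above 0, where 50.6% of the 8600 genes were. Their median was +0.38 with the 3 low genes and +0.27 over the 6 tested, against +0.0027 over all genes.

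In the wildtype degron line, DUSP6 had the largest change of the group, from 68.9 to 97.4 (+0.49 ± 0.18), larger than that of 98.5% of the genes tested in that pair, yet it did not pass (limma, adjusted p = 0.74). DUSP4 stood at 148 and 176 (+0.25 ± 0.18) and EPHA2 at 13.4 and 15.4 (+0.19 ± 0.18), both with an adjusted p of 1.0; less the parental change, that of EPHA2 was -0.071. In this pair 8 of 9 genes were above 0, with a median of +0.19, where 53.8% of the 8600 genes were above 0. In the mutant degron line 2 of 9 were above 0, against 47.2% of all genes, with a median of -0.07, and the widest changes were those of SPRY2 (-0.27 ± 0.22), PHLDA1 (-0.23 ± 0.20) and DUSP4 (-0.22 ± 0.18). Parental cells, with no tagged protein in their labels, had 4 of 9 above 0, against 55.8% of all genes, and a median of -0.01. The 3 low genes are not among the 8600. Without them, 5, 2 and 3 of 6 genes were above 0 in the wildtype degron, mutant degron and parental pairs. Medians of the 6 were +0.15, -0.05 and +0.03 in that order, against +0.015, -0.007 and +0.026 over the 8600. The 9 genes share a pathway and are not independent of each other, so these counts are descriptions of 4 pairs of libraries.

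**Figure D3:**
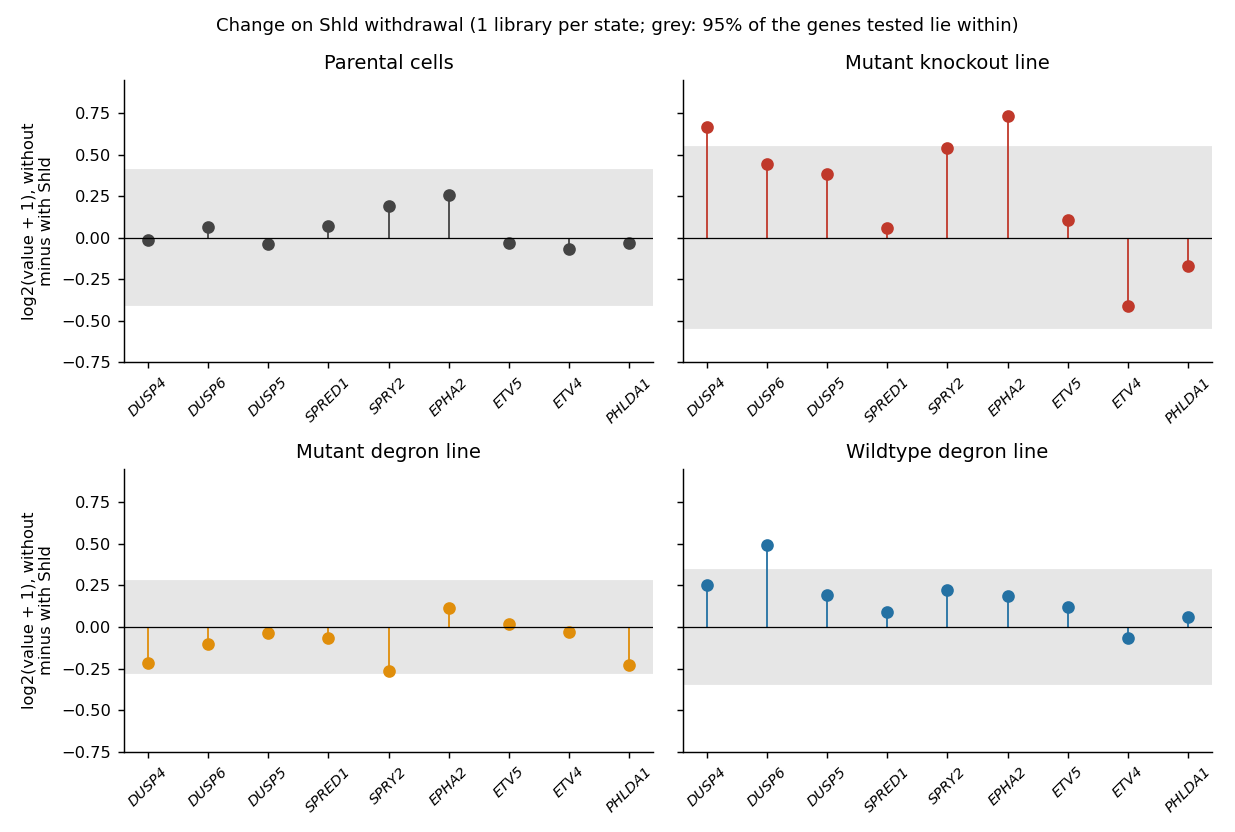
Change from the library with Shld to the library without it, on the log2(value + 1) scale, for the 9 genes in each of the 4 lines; the grey band spans the absolute change that 95% of the 8600 genes tested stay within in that pair. In the knockout line DUSP4 and EPHA2 lie above the band, which reaches 0.544, and in the wildtype degron line DUSP6 lies above a band that reaches 0.344.

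Whether the withdrawals differed between lines was tested directly. None of the 6 genes passed in any of the 3 contrasts between lines (limma). Over all genes, 0.453% passed for the knockout against the mutant degron line and 0.0233% for the knockout against the wildtype degron line. For the wildtype against the mutant degron line 0.244% passed. In the same order, 3, 1 and 1 of the 6 genes had an unadjusted limma p under 0.05, as did 758, 269 and 373 of the 8600. The largest was DUSP4, whose change in the knockout line exceeded that in the mutant degron line by 0.88 ± 0.26 (adjusted p = 0.16). EPHA2 differed by 0.61 ± 0.25 in that contrast (adjusted p = 0.41). The change of DUSP6 in wildtype degron cells exceeded that in mutant degron cells by 0.60 ± 0.25 (adjusted p = 1.0). The rises of EPHA2 and DUSP4 in the knockout line are thus not shown to differ from the changes in the degron lines.

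Around these genes, 5 lists of the same pathway with 86 entries, of which 65 had a locus and 44 were tested, were read in the same fits. GNAQ, GNA11, NRAS, BRAF and NF1 were not among those tested, so the levels of the Gq genes themselves were not read. Against parental cells, 46 calls were made over the 3 lines, and 23 of them held with each library left out in turn. The list genes named here for a difference from parental cells are among the latter unless stated. The 46 calls came from 132 tests, with 18, 14 and 14 of 44 genes in the knockout, mutant degron and wildtype degron lines. Over all genes, 40.1%, 26.8% and 48.2% passed in these lines, so the number of calls is no result about the lists. Of 9 genes of the Gq, phospholipase and protein kinase C input, 3 were higher and 0 lower in the knockout line, 2 and 0 in the mutant degron line, and 2 and 1 in the wildtype degron line, against the backgrounds given above. PRKCA, a protein kinase C, was higher by 1.20 ± 0.09 in the knockout line (adjusted p = 2.16e-05) and by 0.49 ± 0.09 in the wildtype degron line (adjusted p = 0.0030). TRIO, which Gq activates, was higher by 0.83 ± 0.13 and 0.68 ± 0.13 in the same lines. In the mutant degron line TRIO also passed, at +0.60 ± 0.13 (limma, adjusted p = 0.011). PRKCA passed there at +0.29 ± 0.09 (limma, adjusted p = 0.046). Neither of these mutant degron calls held with each library left out in turn.

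Of 16 genes from RAS to ERK and their scaffolds, 1 was higher and 4 lower in the knockout line. The counts were 0 and 2 in the mutant degron line and 2 and 2 in the wildtype degron line. In either direction, 40.1%, 26.8% and 48.2% of all genes passed in the 3 lines, so these counts are no result about this list. MAPK3, which encodes the kinase ERK1 itself, had levels of 45.5 and 47.1 (parental), 28.8 and 25.5 (knockout), 28.8 and 29.5 (mutant degron), and 50.7 and 51.4 (wildtype degron), with Shld given first. Its knockout and mutant degron libraries were all below the other 4, as for ETV5 and ETV4, with differences of -0.75 ± 0.09 (limma, adjusted p = 0.00034) and -0.65 ± 0.09 (adjusted p = 0.0015). MAP2K2, which encodes the ERK kinase MEK2, differed by -0.44 and -0.45. Of 6 receptor tyrosine kinase and ephrin genes tested, 4 were higher and 0 lower in each derived line, where 18.7%, 12.3% and 23.7% of all genes were higher in the knockout, mutant degron and wildtype degron lines. With each library left out in turn, 3 of these calls held in the knockout line (EPHB4, ERBB2, FGFR1), 2 in the mutant degron line (ERBB2, FGFR1) and 4 in the wildtype degron line. ERBB2 was higher by 1.44, 0.73 and 0.86 and FGFR1 by 1.29, 1.06 and 0.59 in the knockout, mutant degron and wildtype degron lines, and MET by 0.98 in the wildtype degron line. Of 6 other DUSP, SPRY and SPRED genes, 0 were higher and 2 lower in the knockout line. The counts were 0 and 3 in the mutant degron line and 2 and 0 in the wildtype degron line. Over all genes, 21.4% and 14.5% were lower in the knockout and mutant degron lines, and 23.7% were higher in the wildtype degron line. These genes were not tested as a set. DUSP8 was lower by 0.62 ± 0.10 in the knockout line.

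Other transcripts used as ERK output moved in both directions against parental cells: of 7, 2 were higher and 2 lower in the knockout line, 1 and 2 in the mutant degron line, and 1 and 0 in the wildtype degron line. HMGA2, a chromatin protein gene, was higher by 1.69 ± 0.21 and 1.25 ± 0.21 in the first 2, and IER3, an immediate early gene, differed by -1.10 ± 0.15 in the knockout line. On Shld withdrawal in the knockout line, 2 of these 7 rose and 0 fell, where 0.977% of all genes rose and 1.78% fell. EGR3, an immediate early transcription factor, went from 4.26 to 11.9 (+1.30 ± 0.21, limma, adjusted p = 0.00092), and CCND1, which encodes cyclin D1, from 110 to 190 (+0.78 ± 0.20, adjusted p = 0.033). EGR3 also read higher without Shld in parental cells (4.64 and 7.08) and in wildtype degron cells (6.96 and 11.8; +0.69 ± 0.21, adjusted p = 0.49). CCND1 stood at 172 and 183 in parental cells, so that, like DUSP4, it was below the parental level with Shld and just above it without. The call of CCND1 held in 6 of 12 alternatives. These were the other pseudocounts and the leaving out of degron line libraries, where its change is the same by construction. It was lost with quantile normalization, median scaling, each change of filter and the spread taken from all 4 lines. In the same pair ERBB3, a receptor of the EGF family, fell from 54.9 to 27.7 (-0.96 ± 0.17, adjusted p = 0.0017), 1 of the 6 receptor and ephrin genes. The calls of EGR3 and ERBB3 held in 9 of 12 alternatives each, the same degron line leave-outs among them. Both were lost with no level filter, with small RNAs and unnamed loci kept, and with the spread taken from all 4 lines. Of the other 3 lists, 0 genes passed. In the degron lines 0 genes of the 5 lists passed on withdrawal.

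**Figure D4:**
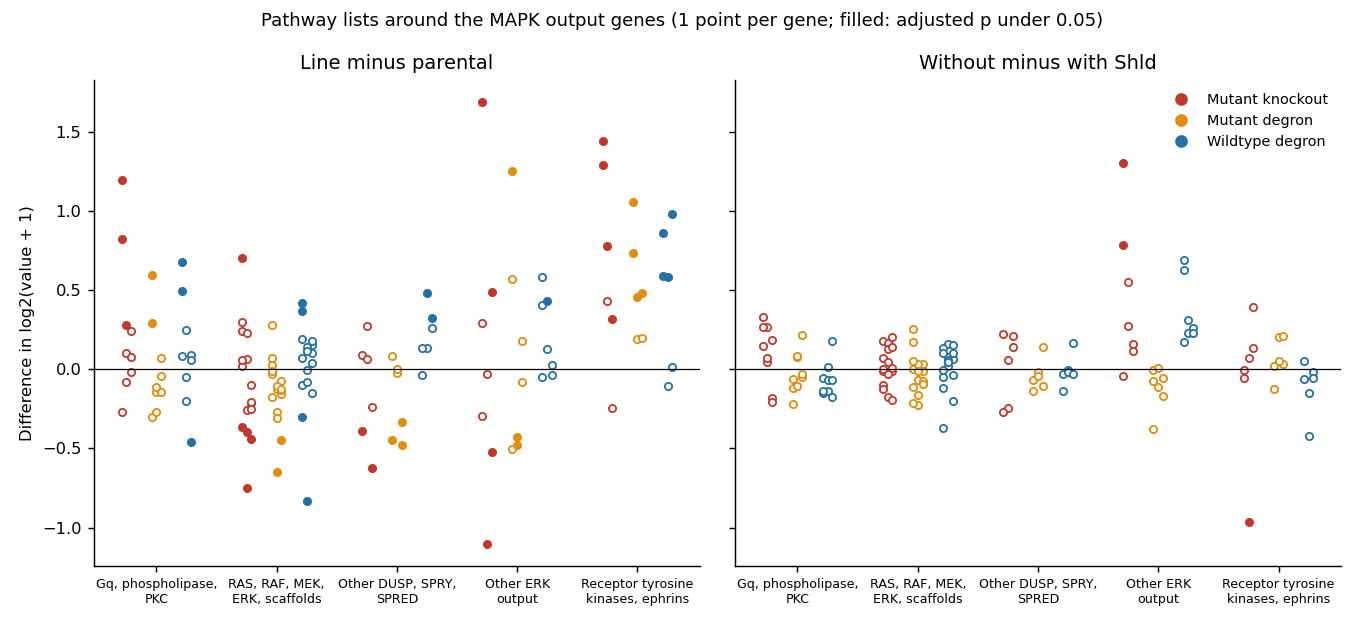
Difference in log2(value + 1) for each tested gene of the 5 surrounding lists, as line minus parental (left) and as without minus with Shld (right), coloured by line; filled points passed an adjusted p of 0.05. Most filled points are in the line comparison, and on withdrawal only EGR3, CCND1 and ERBB3 of the knockout line are filled.

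The genes most like each member over the 8 libraries were found by Pearson r of log2(value + 1) among the 8600 genes. The libraries form 4 pairs of the same line, so these values describe this set of lines and carry no p. ETV4 and ETV5 followed each other (r = 0.94, above 99.1% of genes for ETV4), as did DUSP5 and DUSP6 (r = 0.91, above 99.9% of genes for DUSP5). DUSP4 was closer to ETV5 (r = 0.75) than to DUSP6 (r = 0.27), and EPHA2 ran against ETV4 (r = -0.71). The most similar gene was TRIB3 for ETV5 (r = 1.00, rounded), INF2 for DUSP4 (r = 0.99), TBL2 for EPHA2 (r = 0.98), SLC35B1 for SPRED1 (r = 0.97) and CREB3 for DUSP6 (r = 0.94).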

How the data were processed

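RNA from 8 MEL202 libraries was sequenced with paired reads of 100 bases, per the labels' protocols. TopHat, Cufflinks and hg19 are named in the submitters' processing notes; the sources used here give no versions, annotation or strand (not stated). The authors deposited 1 table of FPKM values, rescaled so that the 75th percentile of each library is 10; that FPKM was rescaled is inferred from Cufflinks and the values. The 8 value columns were matched to samples by line and Shld state in their names; the 2 knockout names also state a domain on wildtype SF3B1 and, without Shld, a time that differs from the labels.

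Small RNAs and unnamed loci were left out, with 1 locus per symbol (highest mean) and a mean of at least 5. Values entered limma 3.58.1 (R 4.3.3) as log2(value + 1), with empirical Bayes moderation and a mean trend. Lines were compared in a fit of line and Shld (3 residual degrees of freedom); withdrawals took the spread from the parental pair (1 residual degree of freedom). On simulated data with changes of 1 or 2 log2 units and independent noise, both fits recovered nearly all changed genes. Smaller changes, such as those of EPHA2 and DUSP4 on withdrawal in the knockout line, were not simulated. The withdrawal fit gave more false calls than its adjusted p states, and so did the line fit when the observed spread was used. Alternatives covered scaling, pseudocount, filter, spread and each library left out. The genes and lists were chosen with earlier results of these data known. Named are all members, at most 4 genes per list and comparison that passed, and the genes most like a member; where 0 passed, the 2 largest differences could be named.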

Additional observations from a re-analysis of the deposited data

Results flagged for a closer look

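The changes of 2 genes on Shld withdrawal differed between the knockout and the mutant degron line by a direct test (limma, adjusted over 8600 genes). EGR3 rose by 1.30 ± 0.29 more in the knockout line (adjusted p = 0.039). It stood at 4.26 with and 11.9 without Shld there, while mutant degron cells read 9.05 and 9.03 and parental cells 4.64 and 7.08. ERBB3 differed by -1.16 ± 0.24 (adjusted p = 0.020), with 54.9 and 27.7 in knockout, 30.6 and 35.3 in mutant degron and 27.8 and 29.7 in parental cells. Wildtype degron cells moved the same way as knockout cells, from 6.96 to 11.8 for EGR3 and from 31.0 to 22.9 for ERBB3, without passing (adjusted p = 0.49 and 0.91). The knockout withdrawal less that of the wildtype degron line was +0.61 ± 0.29 for EGR3 and -0.54 ± 0.24 for ERBB3, with an adjusted p of 1.0 for both. With Shld the knockout line read lowest of the 4 lines for EGR3 and highest for ERBB3. Over the alternatives the adjusted p ran from 0.0341 to 0.812 for EGR3 and from 0.0197 to 0.812 for ERBB3.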

How the results depend on the processing

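The calls on EPHA2, ETV5 and ETV4 in the knockout line, on ETV5 and ETV4 in the mutant degron line and on EPHA2 and DUSP4 in the wildtype degron line held in 18 of 18 alternatives, and EPHA2 in the mutant degron line in 17 of 18. Of 1107 values of the 9 genes under an alternative, 1034 kept their direction and their side of the threshold. Much of this count is by construction. Changes of filter or spread, and leaving out a library of a line not compared, keep the difference the same and can only move its p-value. A further 27 values are changes less the parental change, which have no test and so no side of the threshold. The 2 genes that passed on Shld withdrawal in the knockout line became 1 with quantile normalization and 1 with median scaling. They became 0 with a mean of at least 1, 0 with no level filter, 0 with small RNAs and unnamed loci kept and 0 with the spread from the additive fit; the cause was not tested. Over all genes, the 237 calls of that withdrawal ranged from 0 (no level filter) to 246 (pseudocount 0.1). With 1 library left out, calls against parental cells ranged from 1922 to 3362 (knockout), 886 to 2552 (mutant degron) and 1947 to 4300 (wildtype degron).

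In 28 cases a tested value changed sign, none of them past the threshold (lowest adjusted p 0.37). Taking off the parental change, which gives no test, also turned EPHA2 from +0.12 to -0.14 and ETV4 from -0.028 to +0.044 in the mutant degron line, EPHA2 from +0.19 to -0.071 and ETV4 from -0.067 to +0.0046 in the wildtype degron line, and SPRED1 from +0.061 to -0.0091 in the knockout line. With the libraries with Shld alone, differences from parental cells were -0.13 for DUSP5, -0.18 for DUSP6 and -0.068 for SPRY2 (knockout), +0.11 for SPRY2 (mutant degron), and -0.029 for DUSP6, -0.040 for SPRED1, +0.0024 for ETV4 and -0.040 for ETV5 (wildtype degron). Quantile normalization gave +0.036 for SPRY2 (mutant degron) and -0.030 for SPRED1 (wildtype degron), and in the knockout less the wildtype degron withdrawal +0.0041 for DUSP6 and +0.044 for ETV5. Median scaling gave -0.027 for SPRED1 and -0.013 for ETV5 (wildtype degron). With each library left out, the knockout difference ranged from -0.58 to +0.077 for DUSP4, -0.12 to +0.23 for DUSP5, -0.11 to +0.19 for DUSP6, -0.043 to +0.45 for SPRY2 and -0.041 to +0.00021 for SPRED1. The mutant degron difference ranged from -0.31 to +0.27 for SPRY2, and the wildtype degron difference from -0.030 to +0.041 for SPRED1, -0.083 to +0.021 for ETV4 and -0.037 to +0.076 for ETV5.

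No paired analysis was possible because each group has 1 library and only the parental labels carry a replicate number; this concerns replicate numbers, and the 2 Shld states of a line are paired by line in the fits above. Leaving out libraries of lines that a withdrawal comparison does not use, an alternative chosen after seeing the data, changed 0 calls of members or named list genes; the values stay the same by construction. The knockout withdrawal had 233 to 249 calls over all genes then. A withdrawal has no value without a library of its own line, and the test with the parental spread has no residual degrees of freedom without a parental library. The alternative with the spread from the parental and knockout pairs gives no value for the knockout withdrawal.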
